A study of Mus musculus with 4 samples.

Results

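The genes described here are the 3 subunits of the epithelial sodium channel ENaC (Scnn1a, Scnn1b and Scnn1g), the ubiquitin ligase Nedd4l, the water channels Aqp1, Aqp2, Aqp3 and Aqp4, and the vasopressin receptor Avpr2. They were taken by symbol, all 9 were found among the 21046 genes of the deposited table, and they were followed over 23 clusters of nuclei in 4 libraries. The libraries were prepared from nuclear RNA of mouse kidney cortex by 10X single-nucleus RNA sequencing, in which each RNA molecule is counted by a unique molecular identifier (UMI). All 4 are labelled C57BL/6J, with 1 library per genotype. The genotypes are Klf4flox/flox (the control, which itself carries floxed Klf4), Klf4deltaEC (loss of the transcription factor Klf4 in endothelial cells), Nos3-/- (loss of endothelial nitric oxide synthase) and Klf4deltaECNos3-/- (both). The series asks what lower endothelial Klf4 does with and without Nos3. The labels name no Cre driver, and the sources used here do not give age, sex, number of animals per library or whether the Nos3-/- mouse carries floxed Klf4. Below, a run of 4 values follows the order of labels Klf4flox/flox, Klf4deltaEC, Nos3-/- and Klf4deltaECNos3-/-.

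In the distal nephron, sodium enters the cell from the urine through ENaC, which is built from alpha (Scnn1a), beta (Scnn1b) and gamma (Scnn1g) subunits and is stimulated by aldosterone. Nedd4l (Nedd4-2) tags the channel for removal from the membrane, and the aldosterone-induced kinase Sgk1 restrains Nedd4l. Water crosses principal cells of the collecting duct through Aqp2 on the urinary side, which vasopressin recruits and induces through Avpr2 and cyclic AMP, and leaves through Aqp3 and Aqp4 on the blood side, while Aqp1 serves the proximal tubule and the descending thin limb.

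All levels below are mean UMIs per 10000 UMIs of a nucleus. The number of nuclei, inferred from the values, was 6766, 6883, 7004 and 5491. The library labelled Nos3-/- was the shallowest, with a median of 2364 UMIs per nucleus against 3450 to 4382 in the others. The targeted genes, read in cluster 10 (endothelial cell-like, from markers such as Flt1, Emcn and Tek), did not follow the labels. Klf4 was at 0.621, 0.779, 0.445 and 0.824 and Nos3 at 1.26, 0.930, 1.52 and 2.07. A UMI from outside the deleted part of a gene would still be counted, and the sources used here do not say which part was deleted. Each genotype is therefore named as the library labelled so. Ranges in brackets are 95% counting intervals, which leave out differences between nuclei, animals and preparations. With 1 library per genotype no test between genotypes was possible.

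The 250 bases before the annotated start (RefSeq, GRCm38.p6) are shown for Aqp2 and Aqp3, the water channels highest in the same library of cluster 8, and for Scnn1b and Scnn1g, whose profiles over clusters were most alike. They read 5′ to 3′ on the gene's strand, Aqp2 from chr15:99578806-99579055 (plus), Aqp3 from chr4:41098184-41098433 (minus), Scnn1b from chr7:121864788-121865037 (plus) and Scnn1g from chr7:121734229-121734478 (plus).
Aqp2: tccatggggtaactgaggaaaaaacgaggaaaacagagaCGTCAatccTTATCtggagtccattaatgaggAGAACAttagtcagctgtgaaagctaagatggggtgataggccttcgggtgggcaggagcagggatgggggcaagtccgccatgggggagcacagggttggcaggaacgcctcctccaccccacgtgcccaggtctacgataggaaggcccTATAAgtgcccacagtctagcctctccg
Aqp3: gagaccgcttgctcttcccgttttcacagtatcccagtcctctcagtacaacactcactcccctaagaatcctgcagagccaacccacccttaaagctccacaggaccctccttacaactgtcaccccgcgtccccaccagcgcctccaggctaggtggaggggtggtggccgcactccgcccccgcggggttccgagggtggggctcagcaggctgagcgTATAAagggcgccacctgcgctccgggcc
Scnn1b: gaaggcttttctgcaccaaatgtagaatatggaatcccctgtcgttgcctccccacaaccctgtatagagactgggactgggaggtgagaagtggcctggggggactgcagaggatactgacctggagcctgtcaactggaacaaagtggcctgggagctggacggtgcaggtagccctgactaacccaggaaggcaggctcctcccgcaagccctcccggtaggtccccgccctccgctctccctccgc
Scnn1g: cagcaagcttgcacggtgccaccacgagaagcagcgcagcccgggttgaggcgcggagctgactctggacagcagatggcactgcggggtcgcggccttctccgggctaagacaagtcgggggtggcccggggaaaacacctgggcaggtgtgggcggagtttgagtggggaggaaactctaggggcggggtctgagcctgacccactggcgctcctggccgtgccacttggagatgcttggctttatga
Capitals mark matches to 4 short motifs, chosen after these sequences were read. They are TGACG (a cyclic AMP response element half-site) and GATAA (the GATA factor core), TGTTCT (a steroid receptor half-site), each on both strands, and TATAA on the gene's strand. In Aqp2, CGTCA began 211 bases before the start, TTATC 202, AGAACA 179 and TATAA 28, so it held all 4, with no overlap. Aqp3 held TATAA alone, 29 bases before its start, and neither ENaC promoter held any. Of 32851 promoter windows of the same length, 17.8% held TGACG, 22.6% GATAA, 15.996% TATAA and 16.1% TGTTCT, so single matches are common. The share of windows with all 4 was not counted. An entry was found for 6 of the 9 genes. Among those not shown, Avpr2 held TTATC 185 bases before its start and TGTTCT at 59 and 50.

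In the GENCODE M21 annotation of GRCm38, Scnn1g (7:121734479-121768475) and Scnn1b (7:121865038-121918514) are neighbours on the plus strand of chromosome 7, 96562 bp apart, with 0 protein-coding genes wholly between them. Scnn1a lies at 6:125320659-125344943 (plus) and Aqp1 at 6:55336432-55348555 (plus). Aqp2 lies at 15:99579055-99584547 (plus), next to Aqp5 and Aqp6, and Aqp3 at 4:41092722-41098183 (minus). Nedd4l and Aqp4 are on chromosome 18. Avpr2, at X:73892102-73895502 (plus), lies wholly within Arhgap4, on the opposite strand. The sources used here do not say whether counting used strand, so Avpr2 values are uncertain.

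Cluster 8 was principal cell-like. Its mean scaled level of 9 principal cell markers (Fxyd4, Hsd11b2, Gata3 and others, with the 9 genes of interest left out) was 2.39, against 0.30 for the next list. Cluster 11 was connecting tubule-like, with a mean of 2.24 for that list and 1.82 for distal convoluted tubule, and both Calb1 and the distal convoluted tubule cotransporter Slc12a3 were among its 10 leading genes. Cluster 17 stayed unnamed, because its means for connecting tubule and principal cell markers were nearly equal at 1.64 and 1.63. Cluster 8 held 297, 347, 182 and 300 nuclei, cluster 11 held 195, 187, 255 and 154, and cluster 17 held 109, 129, 163 and 70.

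Beta and gamma ENaC were concentrated in few clusters, alpha ENaC and Nedd4l were widespread, and Aqp2, Aqp3, Aqp4 and Avpr2 were highest in cluster 8 in each of the 4 libraries. Averaged over libraries, Scnn1b reached at least 10% of its highest level in 4 clusters (17, 8, 11 and 16) and Scnn1g in 4 (17, 8, 11 and 20). Aqp2 did so in clusters 8, 17 and 12 and Aqp4 in cluster 8 alone. Aqp3 did so in clusters 8, 17, 16, 12 and 14, and Avpr2 in clusters 8, 17 and 2. In cluster 12 Aqp3 was under the level that 3 counts would give in the libraries labelled Klf4flox/flox and Nos3-/-. In cluster 14 it was at 0.354 in the library labelled Klf4deltaECNos3-/- and at 0.103 to 0.125 in the others.

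**Figure D1:**
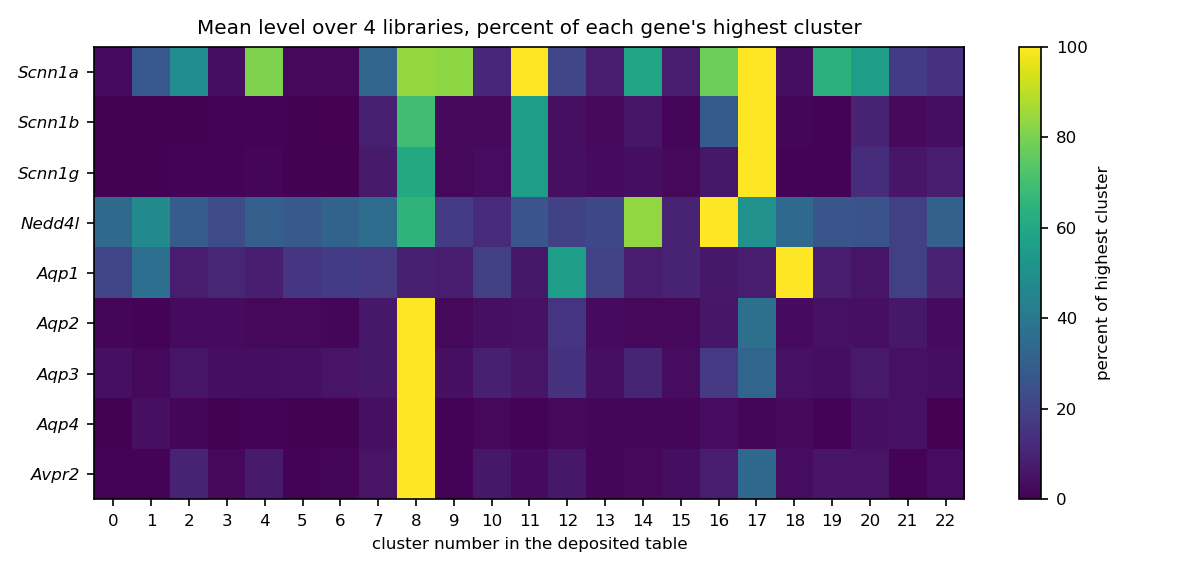
Mean level over the 4 libraries in each of 23 clusters (x axis, cluster number), as a percent of each gene's highest cluster (colour). Scnn1b and Scnn1g peak in cluster 17, Aqp2, Aqp3, Aqp4 and Avpr2 peak in cluster 8, and Scnn1a and Nedd4l are spread over many clusters.

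Scnn1a, the alpha subunit, showed no single site. Its 4-library mean was 2.06 in cluster 17, 2.06 in 11, 1.74 in 8, 1.71 in 9 (distal convoluted tubule-like), 1.66 in 4 (thick ascending limb-like) and 1.61 in 16 (intercalated cell-like), and the ranges over libraries of neighbours in this order overlapped. The highest cluster was 4, 11, 8 and 11 in label order. In cluster 8 Scnn1a was at 1.58 (1.33 to 1.85), 1.35 (1.13 to 1.62), 1.98 (1.51 to 2.55) and 2.05 (1.77 to 2.35). In cluster 11 it was at 2.21 (1.87 to 2.59), 2.08 (1.73 to 2.47), 1.44 (1.13 to 1.80) and 2.51 (2.14 to 2.94). That labelled Nos3-/- was thus lowest in cluster 11 but not in cluster 8.

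Scnn1b, the beta subunit, was highest in cluster 17 in 3 libraries, at 9.32, 10.3 and 11.3 in those labelled Klf4flox/flox, Klf4deltaEC and Klf4deltaECNos3-/-. In the library labelled Nos3-/- it was at 8.83 (7.75 to 10.0) in cluster 17 and 9.59 (8.51 to 10.8) in cluster 8, whose intervals overlapped. In cluster 8 it was at 6.69 (6.18 to 7.23), 4.90 (4.46 to 5.38), 9.59 and 6.43 (5.93 to 6.95). The library labelled Klf4deltaEC was lowest there and that labelled Nos3-/- highest, and neither interval overlapped the rest. In cluster 11 the values were 6.47, 5.64, 4.39 and 5.81, with the library labelled Nos3-/- lowest. Within the library labelled Nos3-/- the level in cluster 8 was 2.19-fold (1.84 to 2.62) that in cluster 11, against 1.03-, 0.869- and 1.11-fold in the other 3.

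Scnn1g, the gamma subunit, was highest in cluster 17 in all 4 libraries, at 5.20, 4.96, 4.49 and 8.02. The library labelled Klf4deltaECNos3-/- stood above the others there (6.86 to 9.31), on 70 nuclei. In cluster 8 the 4 values lay close together, at 3.71, 3.14, 3.402 and 3.51, with overlapping intervals. In cluster 11 they were 3.29, 3.73, 1.80 and 3.88. Lowest was the library labelled Nos3-/-, and its interval (1.45 to 2.203) did not overlap the rest. Outside clusters 8, 11 and 17, intercalated cell-like cluster 16 held Scnn1b at 2.67, 2.18, 3.45 and 2.92, while Scnn1g did not reach 10% of its highest level there. The 3 clusters held 70.1% to 79.9% of all Scnn1b signal and 64.7% to 82.4% of Scnn1g signal in a library, but 19.5% to 26.8% of that of Scnn1a.

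**Figure D2:**
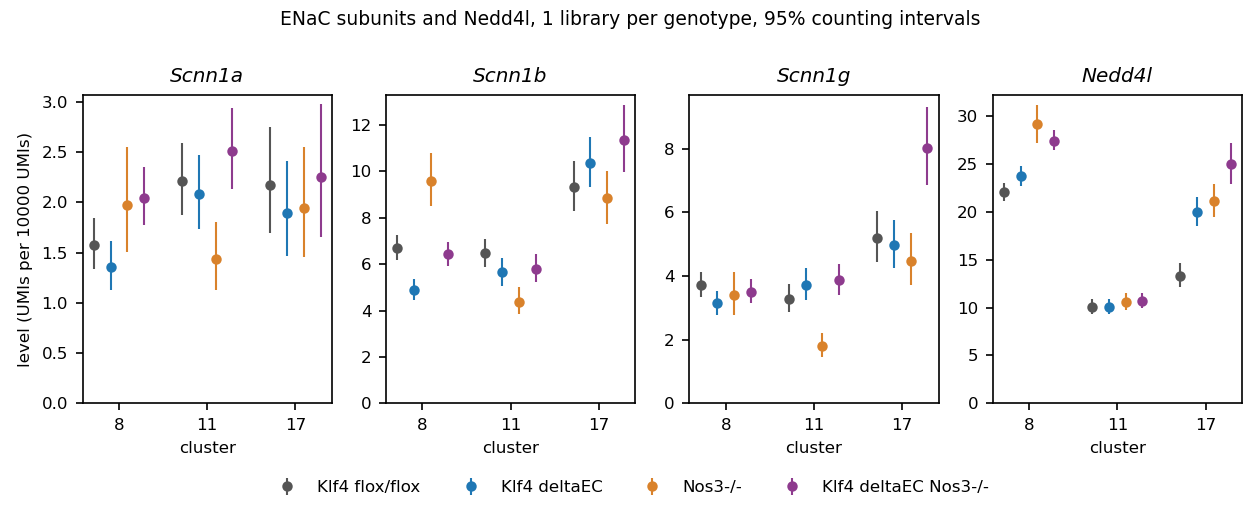
Levels (y axis, UMIs per 10000 UMIs, from 0) of the ENaC subunits and Nedd4l in clusters 8, 11 and 17 (x axis). Each point is 1 library and each line its 95% counting interval. In cluster 11 the library labelled Nos3-/- is lowest for the 3 subunits, at 1.44, 4.39 and 1.80, and Nedd4l is near 10.1 to 10.7 in every library.

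Nedd4l, the ligase that removes ENaC from the membrane, was highest in intercalated cell-like clusters. In cluster 16 it was at 45.8, 30.6, 38.1 and 42.7, and in cluster 14 at 31.2, 30.3, 38.9 and 31.4. In cluster 8 it was at 22.04 (21.1 to 23.01), 23.7 (22.7 to 24.7), 29.1 (27.2 to 31.1) and 27.4 (26.4 to 28.5), so both libraries labelled with Nos3 loss were above both without it. In cluster 11 it was at 10.1, 10.1, 10.6 and 10.7, with overlapping intervals. The level in cluster 8 was 2.19-, 2.36-, 2.74- and 2.56-fold that in cluster 11. Cluster 17 spanned 13.3, 20.0, 21.1 and 24.9, lowest in the library labelled Klf4flox/flox.

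Avpr2, the vasopressin receptor of principal cells, was low but at its highest in cluster 8, at 0.433 (0.311 to 0.587), 0.981 (0.788 to 1.21), 0.386 (0.196 to 0.682) and 0.608 (0.463 to 0.784). The library labelled Klf4deltaEC was highest, and its interval did not overlap those of the other 3. In cluster 11 all 4 libraries were at or under the level that 3 counts would give. Clusters 8, 11 and 17 held 47.6%, 68.6%, 69.9% and 57.1% of all Avpr2 signal. Thick ascending limb-like clusters 2, 4 and 19 held 33.5%, 13.4%, 11.8% and 20.8%. Arhgap4, which covers Avpr2 on the other strand, was at 0.101, 0.0999, 0.0607 and 0.0612 in cluster 8, and its part in the Avpr2 counts was not tested.

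Aqp2, the vasopressin-regulated channel of the urinary side, was at 3.21 (2.86 to 3.59), 6.88 (6.35 to 7.44), 4.68 (3.94 to 5.52) and 11.9 (11.2 to 12.6) in cluster 8. No 2 of these intervals overlapped. Both libraries labelled Klf4deltaEC were above both that were not, and within each Klf4 label the Nos3-/- library was the higher. Cluster 17 gave the same order, at 1.70, 2.47, 1.77 and 3.94, though the intervals of the 3 lowest overlapped. In cluster 11 Aqp2 was at 0.186 (0.0987 to 0.320), 0.254 (0.144 to 0.416), 0.161 (0.0711 to 0.312) and 0.572 (0.39997 to 0.793). For scale, Aqp2 was at 0.125, 0.111, 0.0654 and 0.141 in clusters 0, 1, 3, 5 and 6, whose best-fitting markers were of the proximal tubule, which should lack it. Free RNA from broken cells can give such levels, and its part in cluster 11 was not tested.

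Aqp3, a channel of the blood side, was at 0.971 (0.783 to 1.19), 1.27 (1.05 to 1.52), 1.03 (0.701 to 1.47) and 3.43 (3.07 to 3.82) in cluster 8. The library labelled Klf4deltaECNos3-/- stood apart, and the intervals of the other 3 overlapped. Cluster 17 held 0.619, 0.548, 0.186 and 0.822, and cluster 11 no more than 0.145.

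Aqp4, the other channel of the blood side, was the most restricted of the 9 genes by its level in the next cluster. Cluster 8 held it at 3.10 (2.75 to 3.47), 6.57 (6.05 to 7.12), 0.871 (0.570 to 1.28) and 2.95 (2.62 to 3.32). The library labelled Klf4deltaEC was highest and that labelled Nos3-/- lowest, while the other two overlapped. The next in order, cluster 21, averaged 0.148 but was under the level of 3 counts in each library, as was cluster 11 at or under it. Cluster 1, with more counts, held 0.232, 0.0636, 0.192 and 0.0621. Clusters 8, 11 and 17 held 65.4%, 84.4%, 36.7% and 79.97% of all Aqp4 signal. Clusters 0, 1, 3, 5, 6 and 12 held 19.6%, 3.82%, 41.7% and 5.59%. Aqp4 therefore did not share the order of Aqp2, since the library highest in Aqp2 was near the control in Aqp4.

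**Figure D3:**
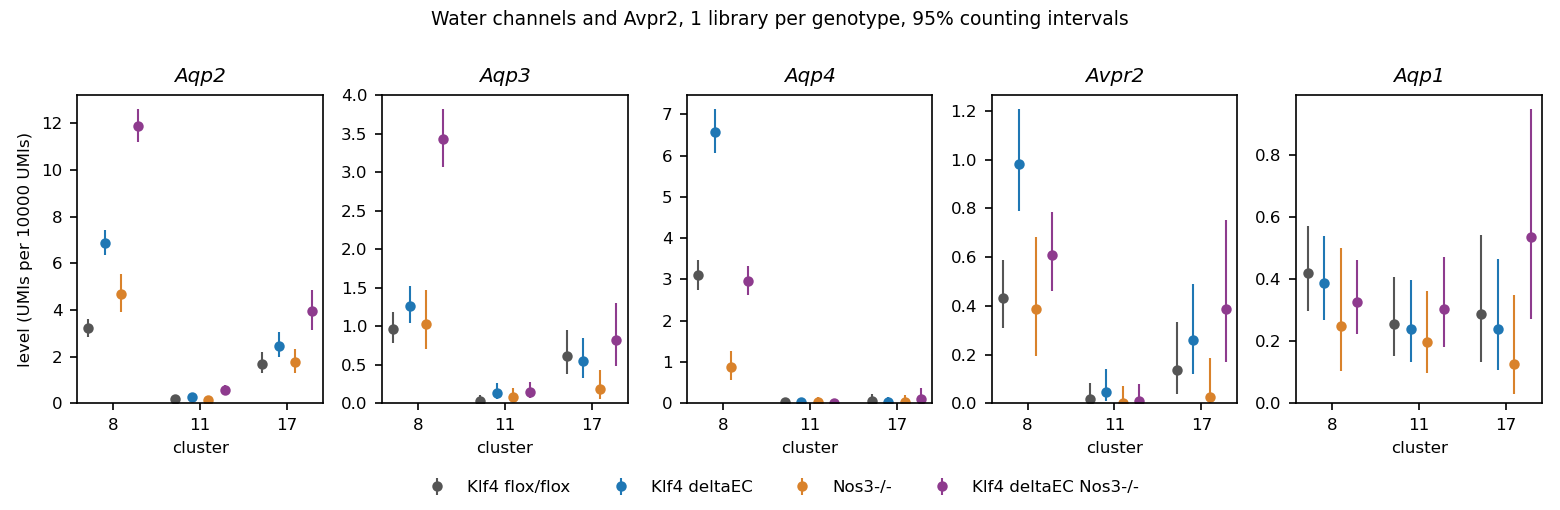
Levels (y axis, UMIs per 10000 UMIs, from 0) of the water channels and Avpr2 in clusters 8, 11 and 17 (x axis), with each point 1 library and each line its 95% counting interval. In cluster 8, Aqp2 and Aqp3 are highest in the library labelled Klf4deltaECNos3-/- (11.9 and 3.43), and Aqp4 and Avpr2 in that labelled Klf4deltaEC (6.57 and 0.981).

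Aqp1 was not a gene of clusters 8 and 11, where it lay between 0.198 and 0.418 in every library. By the mean of libraries, and in 3 of the 4, it was highest in unnamed cluster 18, whose means for thin limb and parietal epithelium markers were 2.97 and 2.82, at 4.75 (4.09 to 5.49), 3.54 (2.86 to 4.34), 0.784 (0.399 to 1.38) and 6.73 (5.88 to 7.68). That labelled Nos3-/- was thus far below the other 3 there. Cluster 12, led by Kap and ferritin genes, followed with 1.62, 2.06, 0.874 and 4.30, where that library was again lowest. In cluster 1, the highest for the library labelled Nos3-/- and with proximal tubule as its best-fitting marker list, the range was narrow, from 1.30 to 1.67.

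Ratios between libraries were taken as log2 of (level + 0.1) over (level + 0.1), for genes at 0.5 or more in the higher library, and a ratio of at least 1 or at most -1 was counted. The brackets of a ratio are its counting interval without the added 0.1. A gene under 0.5 in the lower library thus entered only through the library where it was high. The comparisons share libraries, so their counts are not independent.

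Between the libraries labelled Klf4deltaEC and Klf4flox/flox, cluster 8 held more Aqp2 (1.08, 0.90 to 1.30), Aqp4 (1.06, 0.88 to 1.29) and Avpr2 (1.02, 0.64 to 1.76) in the former. These were 3 of 8 genes that entered, with 0 lower, where 5.25% of 4136 genes were past the limit, 3.22% higher and 2.03% lower. All 3 were just past it, and with 0.5 added in place of 0.1 none of them passed. Avpr2 also did not pass with its median ratio over other clusters subtracted. It entered only through the library labelled Klf4deltaEC (0.981 against 0.433), so its place among the 3 rests on its own high value. Scnn1b was lower by a ratio of -0.44 (-0.63 to -0.27), Scnn1g was at -0.23 and Scnn1a at -0.20, so none of the subunits was higher. In cluster 11, 0 of 4 genes passed, against 0.58% of 3792 (0.396% higher, 0.185% lower).

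For the library labelled Nos3-/- against Klf4flox/flox, Aqp4 alone passed in cluster 8, lower in the former at -1.72 (-2.47 to -1.25), 1 of 7 genes that entered, where 13.6% of 4347 genes passed (8.24% higher, 5.41% lower). Aqp2 was at 0.53 and Aqp3 at 0.08. Nedd4l was at 0.40 (0.29 to 0.52). In cluster 11, 0 of 4 passed, against 8.87% of 3955 (6.27% higher, 2.6% lower), and the 3 subunits were at -0.58, -0.55 and -0.84 for Scnn1a, Scnn1b and Scnn1g.

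Between the libraries labelled Klf4deltaECNos3-/- and Klf4flox/flox, cluster 8 held more Aqp2 (1.86, 1.70 to 2.07) and Aqp3 (1.72, 1.49 to 2.18) in the former. These were 2 of 8 genes, with 0 lower, where 3.05% of 4233 passed (2.24% higher, 0.803% lower). On the linear scale they were 3.70- and 3.53-fold. Aqp4 was at -0.07 and the 3 subunits lay between -0.08 and 0.36. In cluster 11 Aqp2 alone passed, at 1.23 (0.66 to 2.65), 1 of 5 genes, against 1.52% of 3951 (0.861% higher, 0.658% lower). Aqp2 entered there only through the library labelled Klf4deltaECNos3-/- (0.572 against 0.186), so its count rests on its own high value. It did not pass with 0.5 added or with the median ratio of Aqp2 over other clusters subtracted.

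With Nos3-/- as the base for Klf4deltaECNos3-/-, cluster 8 held more Aqp2 (1.33, 1.09 to 1.61), Aqp3 (1.64, 1.19 to 2.31) and Aqp4 (1.65, 1.18 to 2.40) in the former, 3 of 8 genes with 0 lower, where 14.9% of 4504 passed (6.86% higher, 8.08% lower). With the median over other clusters subtracted, Aqp2 was at 0.43 there. Scnn1b was lower at -0.57 (-0.78 to -0.37). In cluster 11, Aqp2 (1.36, 0.78 to 3.22) and Scnn1g (1.06, 0.75 to 1.46) passed, 2 of 5 genes, against 9.79% of 4146 (3.35% higher, 6.44% lower). Neither passed with 0.5 added. Aqp2 again entered cluster 11 only through the library labelled Klf4deltaECNos3-/- (0.572 against 0.161).

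With Klf4deltaEC as the base for Klf4deltaECNos3-/-, cluster 8 held more Aqp3 (1.37, 1.13 to 1.76) and less Aqp4 (-1.13, -1.36 to -0.95) in the former, 2 of 8 genes, where 3.41% of 4219 passed (1.59% higher, 1.83% lower). Aqp4 did not pass with the median over other clusters subtracted. Aqp2 was at 0.78, under the limit with an interval (0.65 to 0.93) above 0. In cluster 11, 0 of 5 genes passed, against 1.48% of 3992 (0.802% higher, 0.676% lower). The 2 Klf4 contrasts thus gave a higher Aqp2 in cluster 8 by 1.08 without and 1.33 with Nos3 loss. For Aqp3 they gave 0.35 and 1.64, and for Aqp4 1.06 and 1.65; none of these differences was tested. The medians of all genes that entered lay between -0.04 and 0.12 in the 5 comparisons.

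**Figure D4:**
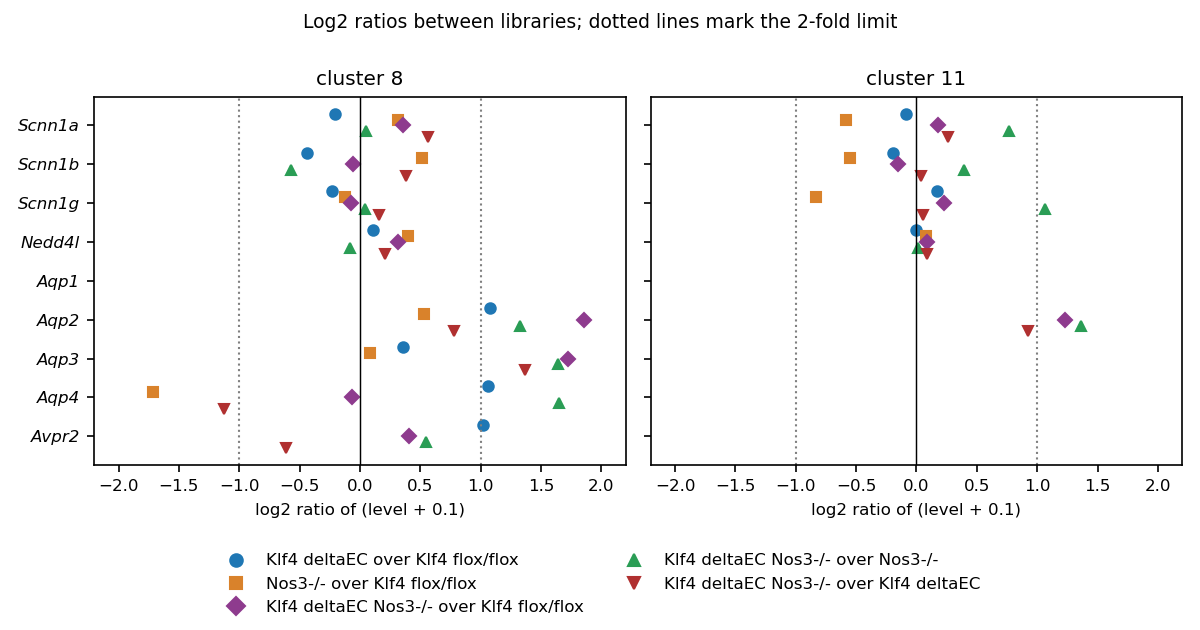
Log2 ratios of (level + 0.1) between libraries (x axis) for each gene (y axis) in clusters 8 and 11, for the genes that reached 0.5 in the higher library, with 1 symbol per comparison. Dotted lines mark ratios of -1 and 1, and the ratios past them in cluster 8 belong to Aqp2, Aqp3, Aqp4 and Avpr2.

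Genes from the marker lists of other cell types, and the mitochondrially encoded share of UMIs, differed between the same libraries. In cluster 8 the library labelled Klf4deltaEC held Pax8 at 27.4 against 5.74 to 8.49 in the others, and Akr1b3, the aldose reductase that makes the osmolyte sorbitol, at 3.64 against 0.0656 to 0.450. Both were singled out after their values were seen. They come from the parietal epithelium list and the thin limb list, of which 4 of 5 and 6 of 7 were above 0 in the library labelled Klf4deltaEC. The thin limb genes Bst1 and Sptssb were under the level of 3 counts there. The parietal list summed to 7.62, 27.7, 5.97 and 9.59, and the thin limb list to 0.911, 4.15, 0.363 and 0.977. In that library Pax8 carried the first sum and Akr1b3 the second. Of the rest of the parietal list, Ncam1 was at 0.943, 0.197, 0.196 and 1.00, Akap12 at 0.0660 and 0.0667 in the libraries labelled Klf4flox/flox and Klf4deltaEC, and Cldn1 and Dkk3 were under the level of 3 counts in all 4. The thin limb gene Slc14a2 was at 0 in 3 libraries, that labelled Klf4deltaEC among them. The 9 principal cell markers, all above 0 in every library, summed to 30.2, 34.1, 31.0 and 35.1. Within that sum the library labelled Nos3-/- held less Fxyd4 (1.44 against 4.80) and Hsd11b2 (1.43 against 3.06) than that labelled Klf4flox/flox. It also held less Elf5 (0.131 against 1.06) and Ptger1 (0.493 against 1.19), but more Kcnj1 (2.65 against 1.15) and Gata3 (4.37 against 3.57). The library labelled Nos3-/- held the connecting tubule list at 33.0 against 14.4 to 23.7, of which Slc8a1 made up 27.6, the proximal tubule list at 46.3 against 29.8 to 42.3, and mitochondrially encoded genes at 0.264% of UMIs against 0.510% to 0.550%. Of the other connecting tubule genes, Klk1 was lower there, at 0.215 against 0.571 to 0.682, and so was S100g, at 0.123 against 0.570 to 0.615. Kl was highest there, at 2.11 against 0.977 to 1.44. Tmem52b was at 1.03 against 0.472 to 0.987, close to the library labelled Klf4deltaEC. Calb1 was at 1.64 against 1.33 to 1.81. In cluster 11 the mitochondrially encoded genes took 0.194% against 0.436% to 0.521%. Slc12a3 was at 71.3, 84.2, 103 and 83.4 there, highest in the library labelled Nos3-/-. Calb1 was at 25.1, 22.1, 17.6 and 25.7, S100g at 6.48, 5.27, 2.08 and 5.58, and Klk1 at 4.60, 5.42, 1.58 and 6.64. These connecting tubule genes were lowest in that library. Kl, of the same list, was not, at 19.5, 11.2, 11.4 and 15.2. The distal convoluted tubule gene Wnk1 was lowest there, at 73.5, 57.1, 38.7 and 66.6. The part of these differences in the ratios above was not tested.

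A list of 30 genes of aldosterone and ENaC control, 29 of them measured, and a list of 42 genes of vasopressin and water handling, all measured, were read beside the 9 genes. Between the libraries labelled Klf4deltaEC and Klf4flox/flox in cluster 8, 3 of 23 sodium genes that entered were higher and 0 lower, with a median of 0.25 against -0.04 for all genes, of which 3.22% were higher and 2.03% lower. The 3 were Per1, an aldosterone-responsive clock gene (1.10 against 0.170), Sgk1 (1.82 against 0.574) and Cnksr3, a scaffold that promotes ENaC activity (3.27 against 1.51), and Cnksr3 did not pass with 0.5 added or with the median over other clusters subtracted. None of 19 water genes passed, with a median of 0.04. In cluster 11, none of 20 sodium and 17 water genes passed, against 0.58% of all genes.

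Between the libraries labelled Klf4deltaECNos3-/- and Klf4flox/flox in cluster 8, 1 of 24 sodium genes (Per1, 1.39 against 0.170) and 1 of 22 water genes (Pde4b, a phosphodiesterase that breaks down cyclic AMP, 1.22 against 0.272) were higher, and 0 were lower. Over all genes 2.24% were higher and 0.803% lower, so 1 gene per list is near that share. In cluster 11 the sodium gene Zbtb16 was lower, at 0.397 against 1.09, 1 of 20, and none of 16 water genes passed, against 0.861% of all genes higher and 0.658% lower. With the median over other clusters subtracted, the direction of Zbtb16 turned, to 0.54. Against the library labelled Klf4deltaEC, that labelled Klf4deltaECNos3-/- held less Cnksr3 (1.34 against 3.27, 1 of 23 sodium genes) and more Pde4b (1.22 against 0.339, 1 of 22 water genes) in cluster 8, where 1.59% of all genes were higher and 1.83% lower. In cluster 11, none of 19 sodium and 17 water genes passed, against 1.48% of all genes.

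Between the libraries labelled Nos3-/- and Klf4flox/flox in cluster 8, 4 of 27 sodium genes were higher in the former and 3 lower. Of 21 water genes, 1 was higher and 2 lower, where 8.24% of all genes were higher and 5.41% lower. Those higher included the potassium channels Kcnma1 (0.881 against 0.0806) and Kcnj10 (1.94 against 0.477), and Pde4b (1.31 against 0.272). Those lower included Fxyd4, a sodium pump regulator (1.44 against 4.80), Elf5, a principal cell transcription factor (0.131 against 1.06), and Ptger1, a prostaglandin receptor (0.493 against 1.19). In cluster 11, 3 of 21 sodium genes were higher and 2 lower (Hsd11b2 and Klk1), and 2 of 18 water genes were higher, against 6.27% of all genes higher and 2.6% lower. Kcnma1 was at 0.578 against 0.0951 there, the glucocorticoid receptor Nr3c1 at 1.36 against 0.552, Prkaca, a catalytic subunit of the cyclic AMP-dependent kinase, at 0.529 against 0.162, and Klk1, tissue kallikrein, at 1.58 against 4.60. With 0.5 added, 5 of the 10 list genes past the limit in cluster 8 still passed (Kcnma1, Kcnj10, Pde4b, Fxyd4 and Elf5) and 2 of the 7 in cluster 11 (Hsd11b2 and Klk1).

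Between the libraries labelled Klf4deltaECNos3-/- and Nos3-/-, 3 of 26 sodium genes in cluster 8 were higher in the former (Fxyd4, Hsd11b2 and Klk1) and 3 lower (Kcnma1, Kcnj10 and Nr3c1), while 2 of 22 water genes were higher (Elf5 and Ptger1) and 1 lower (Akap13). Over all genes 6.86% were higher and 8.08% lower. In cluster 11, Hsd11b2 and Klk1 were higher and Kcnma1 and Nr3c1 lower among 21 sodium genes. Of 18 water genes, 0 were higher and 3 lower (Akap13, Pde4d and Prkaca), against 3.35% of all genes higher and 6.44% lower. Klk1 was at 6.64 against 1.58 and Akap13, a kinase anchor, at 0.762 against 2.30. With 0.5 added, 5 of 9 list genes in cluster 8 (Hsd11b2, Fxyd4, Elf5, Kcnma1 and Kcnj10) and 5 of 7 in cluster 11 (Hsd11b2, Klk1, Kcnma1, Akap13 and Pde4d) still passed. In cluster 8 the direction of Klk1 turned with the median over other clusters subtracted, to -0.15.

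The receptor and gate of aldosterone and further principal cell genes were read whatever their ratio. Nr3c2, the mineralocorticoid receptor, was at 31.03, 21.04, 21.85 and 25.4 in cluster 8 and at 22.3, 24.3, 15.2 and 23.4 in cluster 11. Hsd11b2, which shields that receptor from glucocorticoids, was at 3.06, 2.90, 1.43 and 4.18 in cluster 8 and at 0.776, 0.734, 0.0597 and 0.621 in cluster 11. The library labelled Nos3-/- was the lowest for Hsd11b2 in both. Sgk1 was at 0.574, 1.82, 0.898 and 1.09 in cluster 8, highest in the library labelled Klf4deltaEC, and at 0.139 to 0.235 in cluster 11. Kcnj1, the potassium secretory channel, was at 1.15, 1.73, 2.65 and 2.02 in cluster 8 and between 3.56 and 4.66 in cluster 11. Gata3, a transcription factor, was at 3.57, 6.44, 4.37 and 3.78 in cluster 8 and at 1.41 to 2.36 in cluster 11. Slc14a2, the urea transporter of the inner medulla, was at 0.0403 in cluster 8 of the library labelled Klf4flox/flox and at 0 in the other 3, where 3 counts would give 0.0330, 0.100 and 0.0309.

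Likeness over clusters was described with Pearson correlations of log2(level + 0.1) over 87 columns of at least 20 nuclei and 9663 genes. The columns of 1 library share its depth and those of 1 cluster its cells, so no p is given. Scnn1b and Scnn1g were each other's closest gene (r = 0.93; by Spearman correlation Scnn1g was number 4 for Scnn1b), while Scnn1a was closest to Epb41l4b (0.88), Ildr1 (0.87) and Gca (0.87), with r = 0.62 to Scnn1b and 0.57 to Scnn1g. After Scnn1g, Scnn1b was closest to Frmpd4 (0.89) and Lypd6 (0.88), and after Scnn1b, Scnn1g was closest to A930017K11Rik (0.87) and Atp2b2 (0.85). Nedd4l was closest to Met (0.77), Zswim5 (0.75) and Setbp1 (0.74).

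Among the water genes, Aqp2 was closest to Hsd11b2 (0.88), Aqp3 (0.87) and Fxyd4 (0.87), and Aqp3 to Aqp2, Fxyd4 (0.86) and Mcoln3 (0.83). Avpr2 was closest to Ptger1 (0.87), Fxyd4 (0.86) and Mcoln3 (0.84), and Aqp4 to 9230112J17Rik (0.85), Gm39075 (0.83) and Elf5 (0.83). Aqp4 and Aqp2 had r = 0.64. Aqp1 had no comparably close gene, with Frzb (0.70), Podn (0.69) and Corin (0.69) first. By Spearman rank several of these genes fell far down the list of 9663, A930017K11Rik to 196 for Scnn1g, Mcoln3 to 544 for Aqp3 and 1002 for Avpr2, and Corin to 906 for Aqp1.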

How the data were processed

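The deposited table holds a normalized signal made by the authors for 21046 genes in 92 columns, which are 23 clusters in each of 4 libraries. Every column sums to 10000, and 0 columns of values were left over. Cell Ranger, Seurat and mm10 were used, per the submitters' processing notes, with no versions given. The clustering is the authors', and the treatment of doublets was not given in the sources used here. Barcodes shared between libraries were not analysed here.

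Nuclei numbers and effective UMI totals were inferred, by a rule set after the table was seen: reciprocals of low values that at least 3 genes share, among the lowest 3000, are multiples of the number of nuclei. Tested on simulated data, 16 of 16 numbers were recovered, and totals were off by at most 3.45%. Levels have exact Poisson and ratios exact Clopper-Pearson intervals (95%, counting error only; SciPy 1.17.1, pandas 2.3.3). The intervals covered the true value in 94.7% to 95.5% of simulated cases. The level of 3 counts was the floor.

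The 9 genes, the lists and the motifs were chosen with earlier results of these data known. Named genes were the 9 genes, the up to 3 highest and 3 lowest list genes past the limit per comparison and cluster, a fixed set of principal cell genes and the 3 most alike genes. Alternatives were another pseudocount, no filter, a median-ratio rescaling, mitochondrially encoded genes left out, the median of other clusters subtracted, Spearman correlation and, added after seeing the data, the library labelled Nos3-/- left out of the correlations.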

Additional observations from a re-analysis of the deposited data

Results flagged for a closer look

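Scnn1b moved in opposite directions in clusters 8 and 11. The library labelled Nos3-/- against that labelled Klf4flox/flox gave a log2 ratio of 0.51 in cluster 8 and -0.55 in cluster 11. The library labelled Klf4deltaECNos3-/- against that labelled Nos3-/- gave -0.57 in cluster 8 and 0.40 in cluster 11. These ratios were singled out because their signs were opposite and each counting interval excluded 0, a rule set after the values were seen. The 2 comparisons share the library labelled Nos3-/-, and the difference between the clusters was not tested. With the median ratio of Scnn1b over the other clusters subtracted, the cluster 8 ratios became -0.03 and -0.07 and the cluster 11 ratios -1.10 and 0.92, so the directions in the first comparison were no longer opposite. Most of those other clusters held little Scnn1b, so that median rested largely on low signal. For Nos3-/- against Klf4flox/flox, cluster 0 was at 0.105 against 0.0175, cluster 4 at 0.209 against 0.0252 and cluster 7 at 1.24 against 0.642. Outside clusters 8 and 11, the only clusters where Scnn1b was lower in the library labelled Nos3-/- were 6, 12, 17, 18 and 20. In cluster 6 it was at 0.0271, under the level of 3 counts, against 0.0469.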

How the results depend on the processing

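No paired analysis was possible because each genotype has 1 library, and leaving out a replicate was likewise not possible. Of the 14 ratios of the 9 genes past the limit, 8 were kept with a pseudocount of 0.5 and 9 with the median of other clusters subtracted. Under median-ratio rescaling 14 were kept. Without mitochondrially encoded genes 14 were also kept, but these genes held at most 0.550% of UMIs in clusters 8 and 11 and could hardly move a ratio. Dropping the filter kept 14 too, which was fixed in advance, since it cannot remove a ratio. None of the 14 changed sign under rescaling or with the median of other clusters subtracted. A pseudocount cannot change a sign. With a pseudocount of 0.5, the ratios between the libraries labelled Klf4deltaEC and Klf4flox/flox past the limit fell from 3 to 0, and those between Klf4deltaECNos3-/- and Nos3-/- from 5 to 3. The list genes past the limit then went from 17 to 7 for Nos3-/- against Klf4flox/flox and from 16 to 10 for Klf4deltaECNos3-/- against Nos3-/-. With the median of other clusters subtracted, the ratios of the 9 genes past the limit went from 1 to 3 for Nos3-/- against Klf4flox/flox, from 5 to 3 for Klf4deltaECNos3-/- against Nos3-/- and from 2 to 1 for Klf4deltaECNos3-/- against Klf4deltaEC, and list genes from 16 to 10 for Klf4deltaECNos3-/- against Nos3-/-. Aqp2 between Klf4deltaECNos3-/- and Nos3-/- then went to 0.43 in cluster 8 and 0.47 in cluster 11. Among list genes named, Klk1 in cluster 8 turned to 0.023 for Nos3-/- against Klf4flox/flox and to -0.15 for Klf4deltaECNos3-/- against Nos3-/-, and Zbtb16 in cluster 11 to 0.54 for Klf4deltaECNos3-/- against Klf4flox/flox. The cause was not tested. Without the library labelled Nos3-/-, the closest gene stayed first for 6 of the 9 genes; it changed for Aqp1, Aqp2 and Aqp4, and by Spearman correlation for Scnn1b, Nedd4l, Aqp1, Aqp4 and Avpr2. Aqp4 and Avpr2 were at or under the level of 3 counts in cluster 11 of each library, so no difference was detectable there at this depth.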

Other observations

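Of the other aquaporins, Aqp6 was at 4.94, 3.31, 1.42 and 4.94 in intercalated cell-like cluster 16 and at 0.0565 or less in clusters 8 and 11. Aqp5, the direct neighbour of Aqp2 on chromosome 15 at 6234 bp from its end, was at 0 to 0.0384 in cluster 8, where Aqp2 was at 3.21 to 11.9. Aqp11 was at 0.0744 to 0.125 in cluster 8, and Aqp8 was at 0 in clusters 8, 11 and 16 of each library.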
